A study of Homo sapiens with 21 samples.

Results

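The comparison described here sets HMLE cells after 15 days of TGFβ (d15, 3 libraries) against the same line without TGFβ (d0, 3 libraries), over the 13446 genes whose mean normalised read count was at least 10 across these 6 libraries, out of 23201 genes listed. HMLE is an established line of human mammary epithelial cells that was immortalised with the catalytic subunit of telomerase and SV40 large T antigen, and the d0 and d15 cells alike carry these transgenes. The series is a time course of untreated cells and of cells kept in TGFβ for 1, 4, 7, 10, 15 or 20 days, with 3 libraries of bulk RNA-seq at each of 7 time points and 18847917 to 22667754 reads on genes per library. Cells were plated at a single density, the amount of TGFβ is not given in the sources used here, and the 3 libraries of a time point were described as biological triplicates of 1 cell line. No untreated culture was sampled at d15, so the effect of TGFβ and that of 15 days in culture cannot be told apart, and in bulk RNA fewer cells of a kind and less of a transcript per cell cannot be told apart either. The genes nearest the minimum were TRIM61 and LOC729799, which just reached it and were tested, and FCGBP and NCRNA00324, both at 9.99 and not tested.

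TGFβ binds a pair of receptor kinases at the cell surface and acts through SMAD proteins. In epithelial cells it is known both for arresting growth in G1, through inhibitors of the cyclin-dependent kinases, and for inducing the epithelial-to-mesenchymal transition (EMT), in which cells exchange junctions and keratins for extracellular matrix and a motile shape. Cells that divide make the transcripts of DNA replication under control of E2F factors as they enter S phase, and those of mitosis later, through promoter elements called the cell cycle genes homology region (CHR) and the CCAAT box. When cells leave the cycle, both sets fall and genes held down by growth signals, such as those driven by FOXO factors, come up.

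Promoters of the genes that moved together are shown first, because the replication list and the mitosis list, described below, carry different elements. Over the 300 bases from 250 before to 50 after the start of each gene (RefSeq, GRCh38.p14, whereas the expression values were made on hg19), the E2F letters TTTGGCGC or TTTCCCGC were found on either strand in 20 of the 41 replication genes with a promoter in the table, against 2.3% of all 27305 promoters and 2 of 43 mitosis genes. The CHR letters TTTGAA were found in 31 of 43 mitosis promoters, against 15.4% of all promoters and 1 of 41 replication promoters. CCAAT stood in 32 of 43 mitosis promoters and 22 of 41 replication promoters, against 35.7% of all. Below are the 250 bases before the start of 4 genes, each written 5′ to 3′ on the gene's own strand. They are examples that carry the letters, and other members do not. In the same 250 bases MCM2, CDC6 and RRM2 held no E2F letters, and CCNB1 held CCAAT but no CHR. TYMS held the E2F letters but differed little at d15 (log2 difference -0.30). The E2F letters are in capitals for E2F2 and PCNA, in PCNA as the reverse complement of TTTCCCGC, GCGGGAAA. For CDK1 and MKI67, CHR and CCAAT (or its reverse, ATTGG) are in capitals. In MKI67 the last base of a CHR is also the first base of a reversed CCAAT box. These matches are a description of the letters and do not show that a factor was bound.
E2F2, chr1:23531234-23531483, minus strand: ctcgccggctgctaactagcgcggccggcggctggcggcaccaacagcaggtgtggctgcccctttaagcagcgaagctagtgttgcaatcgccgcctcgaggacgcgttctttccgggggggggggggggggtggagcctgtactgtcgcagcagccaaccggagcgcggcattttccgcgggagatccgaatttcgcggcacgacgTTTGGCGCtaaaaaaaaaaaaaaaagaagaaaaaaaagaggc
PCNA, chr20:5126623-5126872, minus strand: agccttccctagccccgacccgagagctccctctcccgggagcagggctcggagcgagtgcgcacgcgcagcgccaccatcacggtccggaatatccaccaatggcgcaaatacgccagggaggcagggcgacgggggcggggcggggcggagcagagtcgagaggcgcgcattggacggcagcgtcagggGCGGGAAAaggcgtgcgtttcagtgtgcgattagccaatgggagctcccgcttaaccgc
CDK1, chr10:60778081-60778330, plus strand: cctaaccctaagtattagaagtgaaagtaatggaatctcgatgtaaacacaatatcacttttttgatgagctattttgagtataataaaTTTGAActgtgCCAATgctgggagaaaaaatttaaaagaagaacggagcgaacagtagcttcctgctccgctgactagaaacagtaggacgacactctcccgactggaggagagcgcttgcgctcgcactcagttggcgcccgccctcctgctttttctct
MKI67, chr10:128126424-128126673, minus strand: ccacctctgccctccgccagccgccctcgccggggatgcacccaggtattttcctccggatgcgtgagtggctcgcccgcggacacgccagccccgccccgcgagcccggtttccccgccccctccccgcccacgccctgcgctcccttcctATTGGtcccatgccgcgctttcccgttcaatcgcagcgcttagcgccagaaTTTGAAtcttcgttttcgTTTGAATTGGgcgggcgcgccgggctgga

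At d15, 1582 genes were at least 2-fold higher than in untreated cells (11.8% of those tested) and 1194 were at least 2-fold lower (8.88%), at an adjusted p under 0.05 with limma. Without the minimum fold, 39.1% of genes were higher and 37.3% lower, and the counts of list members below are those at 2-fold unless stated. A list whose share of members called lies near these shares, as in ribosome biogenesis, the interferon-stimulated genes or the lysosome at 2-fold, does not stand apart from all genes by that count. The higher genes were 57.0% of those called. When all libraries were rescaled to the same total instead, the median of all genes moved from 0.01 to -0.144 on the log2 scale and the higher genes were 44.6% of those called (1286 higher and 1595 lower), so differences below about that size depend on the scaling. 1 of the d7 libraries stood apart from its group (root mean square log2 difference of 0.47 to 0.485 from the other d7 libraries, against 0.216 to 0.224 among the d15 libraries and 0.222 to 0.244 among the d0 libraries). It enters the fit only through the shared estimate of the spread, and with all d7 libraries left out the counts were 1584 and 1197.

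The state labelled low-proliferation is described here on 48 genes of DNA replication and S phase and 50 genes of mitosis. These lists were chosen with earlier results of these data known, so their counts are not a test of the label. Of the replication genes 45 fell at least 2-fold and none rose, with a median log2 difference of -2.14. MCM2, a subunit of the helicase that unwinds DNA at the fork, had normalised read counts of 3817, 4008 and 4321 in the d0 libraries and 696, 664 and 658 in the d15 libraries. It was thus 6.02-fold lower, with no overlap between the groups (log2 difference -2.59, SE 0.062, adjusted p = 3.6e-19 with limma). CDC6, which loads that helicase, went from 1402 ± 103 (SD, n = 3) to 275 ± 13 (-2.34), and PCNA, the sliding clamp of the polymerases, from 3691 ± 181 to 1256 ± 45.4 (-1.55). RRM2, the regulated subunit of the reductase that makes the building blocks of DNA, was at 4882, 5227 and 5540 in untreated cells and at 779, 800 and 849 at d15 (-2.69, SE 0.072, adjusted p = 2.1e-18 with limma). Other large decreases were those of the transcription factor E2F2 (367 ± 12.8 to 27.2 ± 7.15, -3.74), the initiation factor MCM10 (768 ± 41.1 to 71.8 ± 6.05, -3.40) and the polymerase subunit POLE2 (359 ± 31.0 to 38.5 ± 9.21, -3.21). E2F1, chosen after its values were seen because it heads the E2F family, fell from 479 ± 18.4 to 63.4 ± 11.6 (-2.92).

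The 3 members of the replication list that did not fall 2-fold were also singled out after their values were seen. POLD1 fell by 0.97 and TYMS, the thymidylate synthase, by 0.30 on the log2 scale, while cyclin E1 (CCNE1) was at 85.4, 99.2 and 76.2 in untreated cells and 106, 91.3 and 89.1 at d15, groups that overlap (0.14, adjusted p = 0.35 with limma).

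Of the 50 mitosis genes 47 fell at least 2-fold, none rose, and all 50 passed the test without the minimum fold, with a median of -1.48 and a range from -2.31 to -0.62. MKI67, the gene of the proliferation antigen Ki-67, was at 10626, 10739 and 10649 in the untreated libraries and at 3385, 3226 and 3261 at d15. The decrease was 3.24-fold and the libraries did not overlap (-1.70, SE 0.117, adjusted p = 2.1e-11 with limma). The mitotic kinase CDK1 fell from 4226 ± 60.6 to 1241 ± 50.6 (-1.77) and its partner cyclin B1 (CCNB1) from 8007 ± 364 to 2222 ± 53.6 (-1.85). PLK1, a kinase of spindle assembly, fell by 1.46 and the topoisomerase TOP2A by 1.22 on the log2 scale. The members that fell most were MYBL2, a transcription factor of the late cycle (3073 ± 116 to 619 ± 42.7, -2.31), the checkpoint genes MAD2L1 (-2.25) and BUB1B (-1.99), and the spindle gene DLGAP5 (-2.14). BUB3, a checkpoint protein singled out after its value was seen, fell least, by 0.62. Of these lists, all 3 d15 libraries lay below all 3 d0 libraries in 47 of 48 replication genes and 50 of 50 mitosis genes, where 39.5% of all genes tested did.

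**Figure D1:**
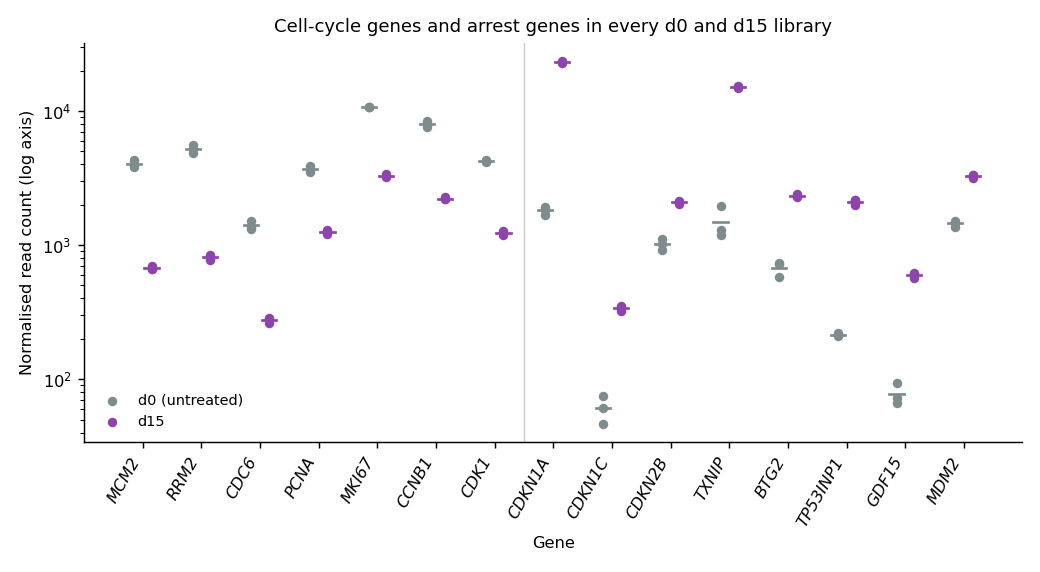
Normalised read count (log axis) of 7 cell-cycle genes (left) and 8 arrest-related genes (right) in each of the 3 d0 (grey) and 3 d15 (purple) libraries, with bars at the group means. In all 15 genes the d15 points lie apart from the d0 points, below them on the left and above them on the right.

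The genes that time the entry into S phase did not move as a block. Of 21 cyclins, kinases, inhibitors and pocket proteins of G1, 3 rose and 2 fell at least 2-fold, with a median of 0.09 (-0.07 after rescaling to the same total, which gave 2 higher and 4 lower). These shares lie near the 11.8% higher and 8.88% lower of all genes, so the counts do not set this list apart. All 3 that rose are inhibitors of cyclin-dependent kinases, but so is CDKN2C, 1 of the 2 that fell. CDKN1A, which encodes p21, was at 1937, 1831 and 1668 in untreated cells and at 23140, 22797 and 23650 at d15, a 12.8-fold increase with no overlap (3.68, SE 0.324, adjusted p = 1.1e-09 with limma). CDKN1C (p57) went from 60.8 ± 14.5 to 337 ± 14.4 (2.48) and CDKN2B (p15), a known direct target of TGFβ signalling, from 1015 ± 92.7 to 2083 ± 57.6 (1.04). CDKN2B was under 2-fold after rescaling to the same total (0.88) and when the third d0 column was left out (0.97). CDKN1B (p27) stood at 1721 ± 153 and 1932 ± 28.3 (0.17), a difference that passed the test as normalised but not after rescaling to the same total (0.012) or without the third d0 column (0.098). The 2 that fell were RBL1, the pocket protein p107 (673 ± 39.5 to 242 ± 18.8, -1.47), and CDKN2C, the inhibitor p18 (1168 ± 62.7 to 465 ± 24.2, -1.33). Cyclin D1 (CCND1), which drives G1, rose from 1346 ± 91.5 to 2413 ± 77.4 (0.84). MYC, a growth-promoting transcription factor, stood at 3596 ± 382 in untreated cells and 5439 ± 132 at d15 (0.60, adjusted p = 0.024 with limma, and not past the threshold after rescaling to the same total, at 0.44, or without the third d0 or the first d15 column, at 0.52 and 0.58).

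Targets of p53 were higher at d15. Of 24 tested, 15 rose at least 2-fold and none fell (median 1.23), and 22 rose without the minimum fold. TP53INP1, a stress-induced regulator of autophagy and cell death, was at 213, 221 and 210 in untreated cells and at 1989, 2159 and 2164 at d15, a 9.82-fold increase (3.29, SE 0.291, adjusted p = 1.3e-09 with limma). GDF15, a secreted stress factor of the TGFβ superfamily, rose from 77.8 ± 14.7 to 596 ± 23.4 (2.94), SPATA18 from 158 ± 6.78 to 937 ± 15.1 (2.56) and BBC3, the pro-death protein PUMA, from 106 ± 19.6 to 472 ± 13.9 (2.17). MDM2, which degrades p53 and is itself a target, went from 1451 ± 74.5 to 3294 ± 99.6 (1.18). HMLE cells carry SV40 large T antigen, which is known to bind p53, and many of these genes also have other regulators. CCNG1 and TNFRSF10C, named because they were the members that did not pass, had log2 differences of -0.08 and 0.07.

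Genes tied to quiescence and growth arrest were also higher. Of 25 tested, 13 rose at least 2-fold and none fell (median 1.10), and 20 rose without the minimum fold. TXNIP, which restrains glucose uptake, was at 1956, 1306 and 1186 in untreated cells and at 15025, 15294 and 14824 at d15 (10.2-fold, 3.38, SE 0.304, adjusted p = 1.6e-09 with limma). PIK3IP1, an inhibitor of PI3-kinase, rose from 71.3 ± 6.55 to 603 ± 24.5 (3.06). The antiproliferative gene BTG2 went from 679 ± 89.9 to 2335 ± 51.1 (1.79), the transcription factor KLF4 from 306 ± 23.2 to 1091 ± 2.73 (1.83), and GAS6, the ligand of the receptor AXL, from 1966 ± 99.3 to 6926 ± 166 (1.82). CCNG2, an atypical cyclin that is induced on cell-cycle exit, rose less, from 920 ± 73.0 to 1552 ± 45.1 (0.76). The d0 libraries of TXNIP spread widely, but all lay below every d15 library.

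**Figure D2:**
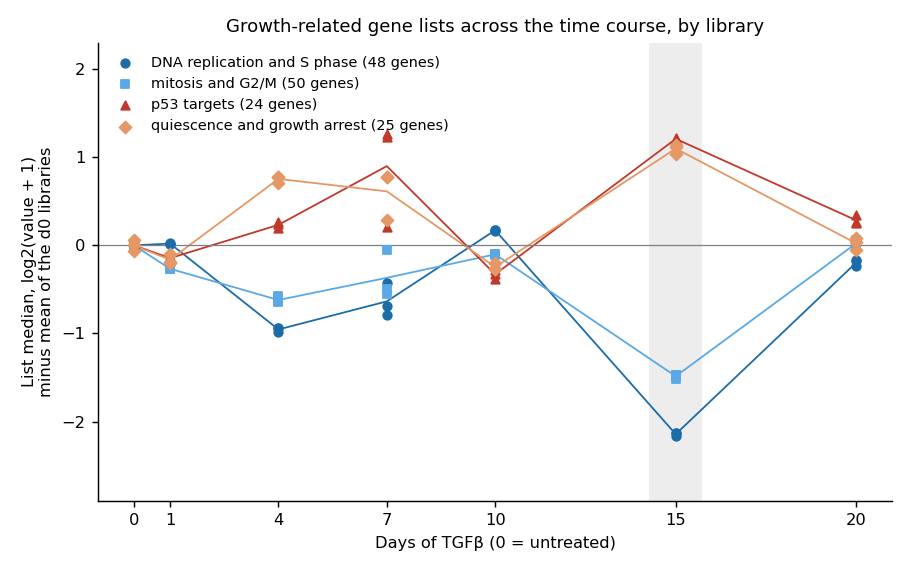
Median over the members tested of log2(value + 1) minus the mean of the d0 libraries, for 4 gene lists, against days of TGFβ (untreated at 0). Each point is a library and the lines join the time point means. At d15 (shaded) the replication list stands near -2.1 and the mitosis list near -1.5, below every other time point.

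Among the days sampled the cycle genes were lowest at d15, and most of the decrease was no longer present at d20. The median of the replication list against untreated cells was -0.942, -0.985 and -0.939 in the d4 libraries, 0.165, 0.170 and 0.177 at d10, -2.17, -2.14 and -2.13 at d15, and -0.239, -0.178 and -0.169 at d20. Of the 48 replication genes 46 had their lowest mean of the 7 time points at d15, and all 50 mitosis genes did, where 25.5% of all genes tested did. TYMS was lowest at d4 and CCNE1 at d20. The p53 list ran the other way, at -0.378, -0.280 and -0.329 at d10 and 1.21, 1.22 and 1.20 at d15. At d7 it was 1.26 and 1.23 in a pair of libraries and 0.206 in the library that stood apart.

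Direct comparisons of d15 with the neighbouring time points were made in the same fit and share the d15 libraries with the comparison above. Against d10, 12.9% of genes were at least 2-fold higher at d15 (1730) and 9.75% lower (1311). Against d20, 8.12% were higher (1092) and 7.04% lower (946). Of the replication genes 45 of 48 were at least 2-fold lower than at d10 (median -2.36) and 42 of 48 lower than at d20 (-1.97). For mitosis the counts were 44 of 50 against d10 (-1.37) and 47 of 50 against d20 (-1.55). The MKI67 mean was 3291 ± 83.3 at d15, between 11288 ± 408 on d10 and 12122 ± 226 on d20, and that of RRM2 was 810 ± 36.0, between 7685 ± 143 and 7480 ± 128. For both genes the means on either side of d15 were above the untreated mean. CDKN1A went from 2742 ± 140 to 23196 ± 429 and then 5801 ± 536 over the same days, and TXNIP from 518 ± 28.6 to 15047 ± 236 and then 1460 ± 60.9. Of the p53 targets 14 of 24 were higher than at d10 and 1 lower, and 12 were higher than at d20. Of the quiescence genes 15 of 25 were higher than at d10 and 7 higher than at d20, with none lower in either.

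**Figure D3:**
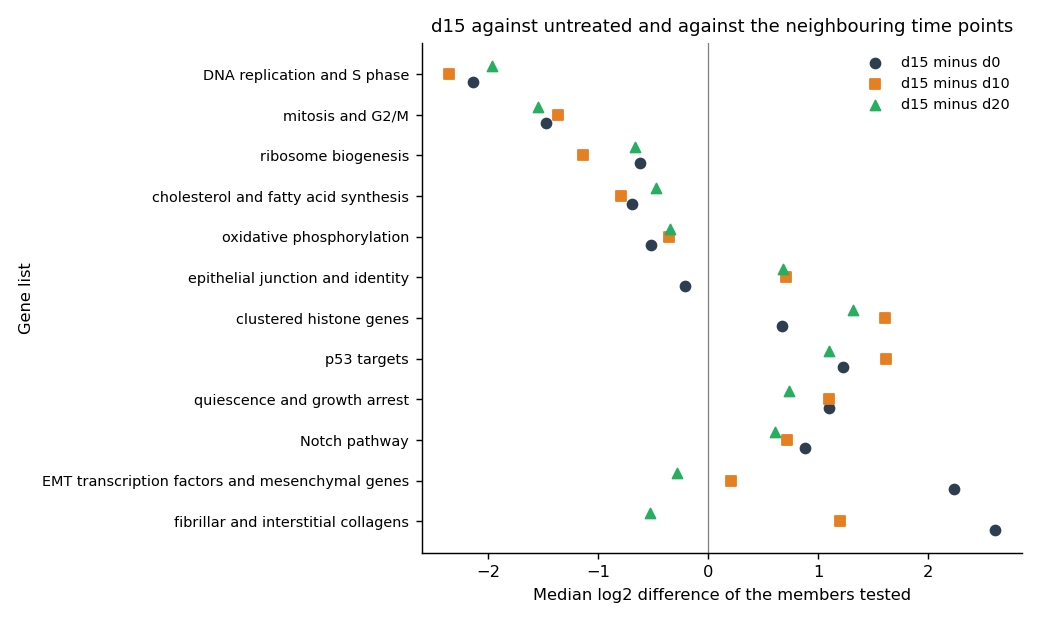
Median log2 difference of the members tested in 12 gene lists, for d15 minus d0 (circles), d15 minus d10 (squares) and d15 minus d20 (triangles). The replication and mitosis lists lie below 0 and the p53 and quiescence lists above 0 in all 3 comparisons, whereas the EMT and collagen lists lie above 0 against d0 and d10 and below 0 against d20.

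Against d10 the largest increases were the non-coding RNA NCRNA00086, PRODH, INPP5D, KDR and BEST2. NCRNA00086 was at 0 in all d10 libraries and at 187, 200 and 207 at d15. PRODH, the enzyme that starts proline breakdown, stood at 4.59 ± 1.54 at d10 and 553 ± 19.8 at d15 (6.67). INPP5D, which encodes the lipid phosphatase SHIP1, was at 102 ± 11.7 at d10 and 7135, 7096 and 7145 at d15, and had been at 342 ± 39.9 in untreated cells, so that it rose 20.9-fold over d0 as well (4.38, SE 0.388, adjusted p = 1.2e-09 with limma). SHIP1 opposes PI3-kinase signalling and is best known from blood cells. Against d20 the largest increases were EDN2, SCNN1G, FOS, KDR and BEST2, and FOS, an immediate early transcription factor, had means of 126 ± 27.6 at d20 and 2731 ± 151 at d15. The largest decreases against both days included ANGPTL4, MYH15, FAM111B and NAV3. ANGPTL4, a secreted inhibitor of lipoprotein lipase, had a mean of 69.5 ± 6.76 at d15 and 57.4 ± 3.12 without TGFβ, but 2078 ± 124 on d10 and 1368 ± 131 on d20. FAM111B, a protease gene expressed in cycling cells, fell against d0 too (911 ± 82.7 to 42.6 ± 10.7, -4.41). TFPI2, a protease inhibitor of the matrix, had a log2 difference of -4.74 against d10, and NRGN one of -3.66 against d20.

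Processes that feed growth were lower along with the cycle genes, by less. In ribosome biogenesis, the nucleolar assembly of ribosomes, 5 of 42 genes fell at least 2-fold and none rose (median -0.62), and 37 fell without the minimum fold (3 at 2-fold when a d0 library, the third column, was left out, and 8 after rescaling to the same total). NOP56, a core protein of the small nucleolar particles, went from 3323 ± 79.0 to 1349 ± 30.2 (-1.30), nucleolin (NCL) from 20096 ± 962 to 10040 ± 352 (-1.0) and fibrillarin (FBL) from 6684 ± 362 to 4199 ± 23.4 (-0.67). UTP20, MRTO4 and LYAR fell by 1.12, 1.10 and 1.02. Against d10, 25 of the 42 were at least 2-fold lower at d15. The 74 cytosolic ribosomal proteins, by contrast, had a median of 0.06 and no member past 2-fold in either direction, and the sign of that median turned after rescaling (-0.10) and after quantile normalisation (-0.13). In oxidative phosphorylation 66 of 72 genes fell without the minimum fold (median -0.52), where 37.3% of all genes did. At 2-fold 7 fell (11 after rescaling to the same total), a share near the 8.88% of all genes. ATP5G1, which encodes the c subunit of the ATP synthase ring, fell from 2345 ± 114 to 835 ± 22.4 (-1.49), and the complex I subunit NDUFA9 from 3050 ± 25.7 to 1285 ± 46.3 (-1.25). COX4I1, of complex IV, fell by 0.25.

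Of 32 genes of cholesterol and fatty acid synthesis 9 fell at least 2-fold and 2 rose, with a median of -0.69 (10 lower and 1 higher after rescaling to the same total). FDPS, which makes farnesyl diphosphate, went from 7895 ± 38.4 to 2273 ± 33.8 (-1.80), HMGCS1, an early enzyme of the same pathway, from 5980 ± 74.7 to 1874 ± 47.2 (-1.67), and the lipogenic enzymes ACLY and FASN fell by 1.45 and 1.26. The desaturase gene SCD fell by 0.29. Of 34 genes of glycolysis and the hypoxia response 6 fell and 2 rose (median -0.19). Rescaling to the same total gave 8 lower and 1 higher, and 1 was higher also with a pseudocount of 10 and after quantile normalisation. Carbonic anhydrase CA9, a marker of hypoxia, was at 1756, 1824 and 1763 in untreated cells and at 54.1, 46.1 and 49.7 at d15 (35.6-fold lower, -5.13, SE 0.131, adjusted p = 1.0e-18 with limma). LDHA, the lactate dehydrogenase, fell from 21831 ± 674 to 8587 ± 175 (-1.35), and PGK1 and PDK1, of glycolysis and its branch point, stood at -1.37 and -1.47. NDRG1, also induced by hypoxia, rose instead, from 11881 ± 709 to 33259 ± 785 (1.49), and VEGFA did not pass the test (0.12, adjusted p = 0.090 with limma) but passed it without the d7 libraries.

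Histone genes of the replication-coupled clusters went against the direction of the S phase genes. Their main transcripts are made in S phase and end in a stem-loop without a poly(A) tail, and the libraries held few of them: 13 of 58 genes passed the minimum mean. Of these 13, 6 rose at least 2-fold and none fell (median 0.67, and 1 lower after rescaling to the same total). HIST1H2BD rose from 52.8 ± 10.8 to 314 ± 11.7 (2.57), HIST1H2AC from 75.7 ± 4.79 to 332 ± 11.1 (2.12), HIST1H1C from 200 ± 27.4 to 708 ± 18.1 (1.83) and HIST1H2BK from 536 ± 24.5 to 1295 ± 34.3 (1.27). Histone genes of a cluster are near-identical in sequence, so reads may have been shared among them. HIST1H4C, with at most 10 reads in any of the 6 libraries, was below the minimum mean and has no test.

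EMT genes were high in the same libraries. Of 19 EMT transcription factors and mesenchymal genes 15 rose at least 2-fold and none fell (median 2.24). FN1, which encodes fibronectin, was at 4451, 4110 and 4168 in untreated cells and at 456887, 444143 and 429087 at d15 (104-fold, 6.71, SE 0.061, adjusted p = 2.5e-26 with limma). The intermediate filament VIM rose from 5181 ± 72.9 to 62599 ± 935 (3.60), N-cadherin (CDH2) from 11 ± 2.49 to 217 ± 2.86 (4.21), the repressor ZEB1 from 5.71 ± 0.671 to 214 ± 20.8 (5.0) and SNAI2 from 1248 ± 84.0 to 5886 ± 38.4 (2.24). CDH11, a mesenchymal cadherin with at most 1 read per untreated library, stood at 756 ± 10.4 at d15, or at least 277-fold more than 3 reads per library, the level assumed for d0. Compared with d20, 1 of the 19 was higher and 3 were lower at d15 (median -0.28).

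Genes of the extracellular matrix were among the largest increases over d0, which were POSTN, CDH11, FBLN5, ACAN, WNT5B, CREB3L1, GREM1, FN1, DPT and SCG5. Periostin (POSTN) had no read in the untreated libraries and 784, 828 and 789 at d15, which by the same bound is at least 294-fold higher. ACAN (aggrecan), DPT (dermatopontin) and the BMP antagonist GREM1 were at least 76.0-fold, 66.3-fold and 44.0-fold higher. FBLN5, an organiser of elastic fibres, went from 5.44 ± 1.5 to 1165 ± 48.0 (7.53), WNT5B from 2.23 ± 2.36 to 350 ± 20.1, CREB3L1, a transcription factor of the secretory pathway, from 2.7 ± 1.69 to 432 ± 38.8, and SCG5 from 12.8 ± 4.29 to 1345 ± 15.6. Of 13 interstitial collagens 11 rose and none fell (median 2.61). COL1A1 went from 449, 457 and 479 to 9567, 9648 and 8737 (4.33), COL1A2 from 3.06 ± 0.785 to 210 ± 5.32 (5.72), COL6A3 from 5.37 ± 2.93 to 146 ± 7.61 and COL3A1 from 7.81 ± 2.42 to 52.2 ± 2.53. COL5A1 had no read at d0 and was at least 21.4-fold higher at d15. Of 29 matricellular and proteoglycan genes 20 rose and none fell (2.09). Among them were VCAN (versican, 1.76 ± 1.42 to 257 ± 33.9), BGN (biglycan, 65.8 ± 12.5 to 305 ± 12.3) and LOX, which crosslinks collagen (322 ± 16.7 to 12325 ± 350). LOX was also higher at d15 than at d10 (992 ± 68.7) and d20 (3197 ± 167).

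Markers of fibroblasts were read beside the matrix genes. THY1, the most abundant of the 6, and FAP and PDGFRB rose (1.59, 4.64 and 2.06), and the list summed to 1460, 1447 and 1385 in the untreated libraries and to 4987, 4832 and 4876 at d15. PDGFRA, LUM and DCN, also members of that list, had at most 3 reads in each of these 6 libraries. Of 19 basement membrane genes 12 rose and none fell (1.43), among them the laminin chains LAMA3 (3.10) and LAMB3 (2.54), with NID1 at 2.69 and the collagen IV chain COL4A1 at 2.09. Of 16 integrins 8 rose and none fell (1.10). ITGB4, a laminin receptor subunit of hemidesmosomes, went from 12714 ± 150 to 83564 ± 2617 (2.72), ITGB6, which activates latent TGFβ, from 1218 ± 16.6 to 5294 ± 88.3 (2.12) and ITGB3 and ITGB2 rose by 3.21 and 2.38 from low levels. ITGA2 rose by 0.61. Of 22 matrix proteases and inhibitors 17 rose and 2 fell (1.70, 14 and 2 after rescaling to the same total). MMP2 and MMP9, the gelatinases, rose by 5.27 and 5.24, ADAM19 by 4.45 and the urokinase PLAU by 1.07. Of 22 contractile genes 10 rose and none fell (0.90), with TAGLN at 4.06, FLNC at 3.90, MYL9 at 2.26, TPM1 at 1.99 and ACTA2 at 1.54. CNN1, a marker of smooth muscle, had at most 3 reads in each of these 6 libraries.

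**Figure D4:**
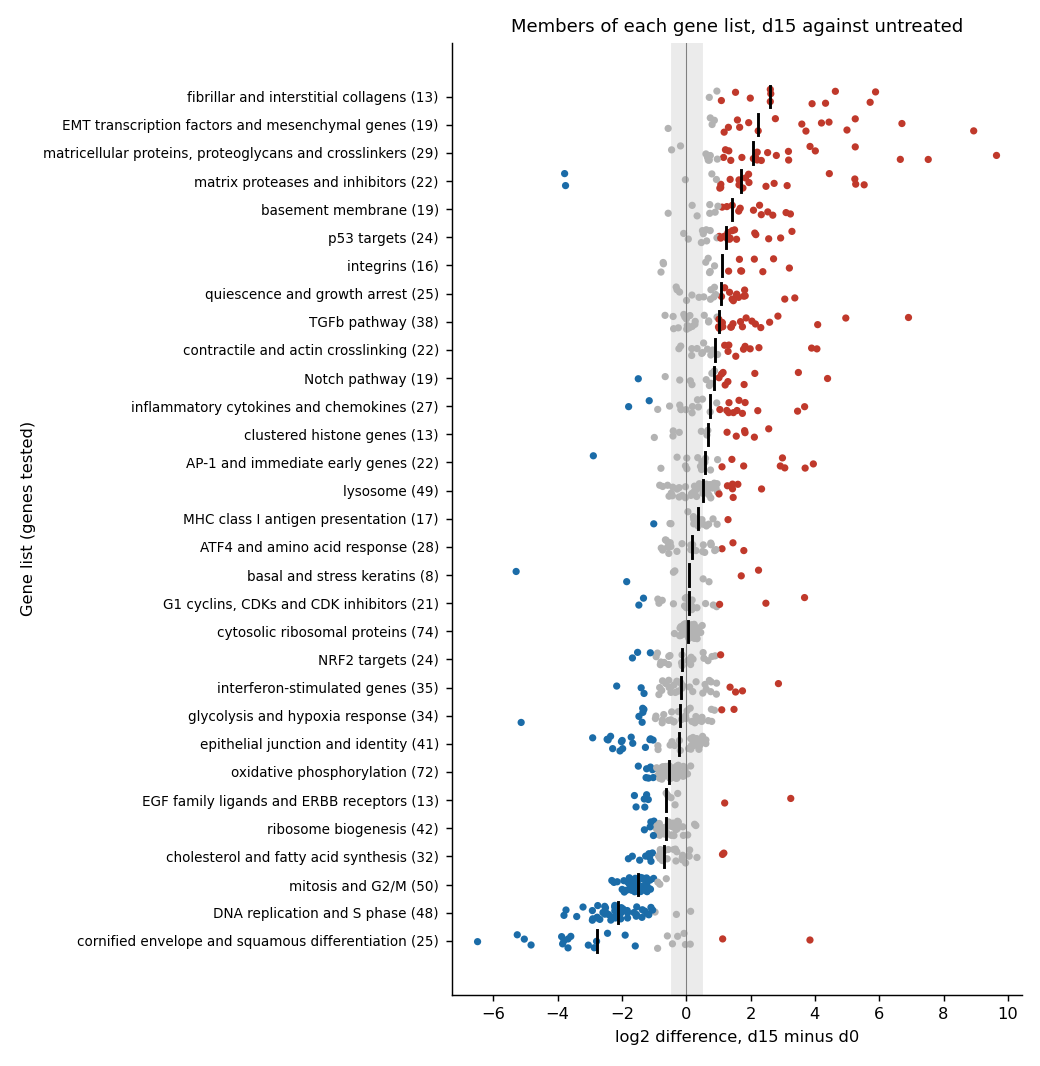
Log2 difference of d15 minus d0 for every member tested of 31 gene lists (number tested in brackets), with a black bar at each list's median. Red and blue points are higher or lower by at least 2-fold at an adjusted p under 0.05 with limma, grey points are not, and the grey band holds the middle 50% of all genes.

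Epithelial genes were lower in part. Of 41 genes of junctions and epithelial identity 15 fell at least 2-fold and none rose (median -0.21), and without the minimum fold 22 fell and 15 rose. EPCAM, an epithelial adhesion molecule, went from 2162, 2058 and 2099 to 420, 387 and 368 (-2.43, SE 0.084, adjusted p = 1.7e-16 with limma). The transcription factors GRHL1 and ELF3 fell by 2.91 and 2.46, and the tight junction gene CLDN1 had a log2 difference of -2.35. E-cadherin (CDH1) was at 7314, 6946 and 7324 in untreated cells and at 6468, 6395 and 6149 at d15, a decrease of 1.14-fold without overlap (-0.18, adjusted p = 0.0074 with limma). The splicing regulator ESRP1 did not pass the test (4008 ± 117 and 4224 ± 118, adjusted p = 0.15 with limma) but passed it, on the higher side, without the d7 libraries. CDH1 was higher at d15 than at d10 (3720 ± 122) and d20 (2868 ± 37.5), and 11 of the 41 genes were at least 2-fold higher at d15 than at d10, 11 higher than at d20 and none lower in either.

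The keratins and the cornified envelope diverged. Of 25 genes of squamous differentiation 16 fell and 2 rose (median -2.79, 1 higher after rescaling to the same total). KRT13, a keratin of stratified mucosa, went from 540, 602 and 604 to 2.04, 9.95 and 7.25 (-6.49, SE 0.500, adjusted p = 1.3e-10 with limma), and the cornified envelope gene SPRR1A from 242 ± 2.27 to 5.61 ± 2.22 (-5.25). The desquamation protease KLK7 had a log2 difference of -5.03 and SPRR1B one of -3.87. SPRR2D had at most 2 reads per library at d15 and was at least 17.1-fold lower. Involucrin (IVL) rose instead, from 109 ± 17.7 to 238 ± 4.26 (1.13). Other genes among the largest decreases were BBOX1, the last enzyme of carnitine synthesis (276 ± 26.6 to 4.50 ± 3.00), ANKRD22 (370 ± 18.4 to 11.2 ± 0.276), LZTS1 (414 ± 2.75 to 13.8 ± 2.39), PRR15L (109.9 ± 18 to 3.60 ± 1.51) and the basal keratin KRT15 (19251, 18940 and 19362 to 470, 492 and 511). Among 8 basal and stress keratins KRT15 and KRT6B fell and KRT17 and KRT6A rose. KRT17 went from 37285, 38925 and 41718 to 186759, 181902 and 191369 (2.25) and stood at 13305 ± 807 at d10 and 48718 ± 1517 at d20. KRT5 was at 224349 ± 8441 and 175809 ± 2539 (-0.35), and KRT14 at 72774 ± 2088 and 119038 ± 3522 (0.71, which turned to -0.51 after quantile normalisation). KRT14, KRT16 and KRT17, and KRT6A and KRT6B, are close paralogs that can share reads. In a list of 6 keratins labelled simple, which also held KRT80 and the hair keratin KRT81, KRT7 and KRT81 rose (1.59 and 1.84) and KRT80 fell (-1.77), KRT18 fell by 0.75 and KRT19 rose by 0.60.

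The identity of the cells was read from markers. The basal mammary markers were abundant at d0 and d15, with sums of 354241, 369147 and 377980 and of 605641, 585251 and 595900, with KRT5 the most abundant of the 7 at d0 and KRT17 at d15, and with TP63, the defining transcription factor, at 4453 ± 177 and 5389 ± 48.0. Of the 7 basal markers tested 3 rose and none fell, and of the 6 luminal markers tested none rose and 2 fell at 2-fold, or 3 rose and 3 fell without the minimum fold. KRT8, the most abundant luminal marker, rose from 7642, 7732 and 8490 to 11477, 11069 and 11231 (0.50). Among the luminal markers PGR, ELF5 and KIT had at most 3 reads in each library, ESR1 fell from 39.0 ± 3.99 to 13.7 ± 2.06, GATA3 stood at 279 ± 43.2 and 340 ± 25.2, and the sums were 17604, 17574 and 18920 against 17004, 16714 and 16713. The leukocyte genes PTPRC and CD3E had at most 3 reads per library, and that list summed to 63.2, 74.6 and 67.3 at d0 and 39.8, 41.6 and 36.3 at d15, with CD14 the most abundant. Of the endothelial markers CDH5 had at most 3 reads and PECAM1 fell (41.3 ± 2.06 to 9.06 ± 2.40), while KDR, a VEGF receptor and the most abundant of the 5, rose from 41.8, 50.9 and 33.6 to 273, 263 and 253 (2.63), so that the list summed to 89.9, 109 and 81.1 at d0 and 291, 283 and 275 at d15. In the adipocyte list PLIN1 rose from 5.92 ± 2.63 to 25.1 ± 2.90, LEP had at most 3 reads and ADIPOQ stood at 6.08 ± 0.929 and 10.9 ± 2.3, with sums of 15.1, 12.7 and 9.90 against 36.7, 32.6 and 40.4. The smooth muscle and pericyte list summed to 112, 84.8 and 87.1 at d0 and 153, 133 and 121 at d15, mostly RGS5, with DES and CNN1 at no more than 3 reads and MYH11 at 35.7 ± 7.81 and 53.8 ± 11.6.

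Components of TGFβ signalling rose in number. Of 38 tested 20 rose and none fell (median 1.01), and 14 rose after rescaling to the same total. The ligand TGFB1 went from 1300 ± 39.5 to 3566 ± 145 (1.46) and the type I receptor TGFBR1 from 761 ± 72.6 to 1233 ± 30.04 (0.70). The negative regulators SMAD7, SKIL and PMEPA1 rose by 2.59, 1.75 and 4.96. NOG and FSTL3, also members of that list, rose by 4.09 and 2.85. In the Notch pathway, which signals between touching cells, 9 of 19 rose and 1 fell (0.88, 6 and 1 after rescaling to the same total). The receptor NOTCH1 was at 1800, 1768 and 1679 in untreated cells and at 7807, 7560 and 7673 at d15 (4.39-fold, 2.13, SE 0.319, adjusted p = 3.4e-06 with limma), with 668 ± 45.4 at d10 and 1249 ± 93.0 at d20. NOTCH4 rose by 3.49, the ligand JAG1 by 1.15 and the target HES2 by 1.80. HEYL was at least 14.6-fold higher, and NOTCH3 was at 2013, 2087 and 1940 in untreated cells and 1310, 1232 and 1300 at d15. The libraries of NOTCH3 did not overlap, but its difference of -0.65 passed the test only in some fits (adjusted p = 0.078 with limma over all 21 libraries, and past the threshold without the d7 libraries, with d0 and d15 alone, with edgeR and after rescaling to the same total), and it stood at 78.5 ± 3.16 at d10. In the EGF family 2 of 13 rose and 6 fell (-0.62). The receptor EGFR went from 4938 ± 201 to 11328 ± 558 (1.20) and the ligand AREG from 38.5 ± 1.71 to 376 ± 14.9 (3.25), whereas the ligands EPGN, NRG4 and HBEGF stood at -1.61, -1.56 and -1.30.

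Immediate early genes, which respond within minutes to growth factors or serum, were mixed. Of 22 tested 8 rose and 1 fell against d0 (median 0.59), whereas 8 were higher and 9 lower at d15 than at d10 (-0.31), and 5 higher and 7 lower than at d20 (0.18). The list median over d0 was 0.635, 0.558 and 0.568 in the d15 libraries, below the 1.42, 1.52 and 1.62 of d4 and the 1.03, 1.06 and 1.01 of d10. FOS was at 221, 209 and 117 in untreated cells and at 2865, 2760 and 2568 at d15 (3.95, SE 0.311, adjusted p = 1.8e-10 with limma), EGR1 at 1999, 1312 and 2181 and at 14345, 13705 and 12796 (2.93), and the phosphatase DUSP1 at 205 ± 36.9 and 2644 ± 144 (3.70). JUN and JUNB rose by 3.06 and 2.99.

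Among inflammatory genes 12 of 27 cytokines and chemokines rose and 2 fell (median 0.75). IL32 went from 54.9 ± 10.8 to 707 ± 45.6 (3.68), IL11, a known TGFβ target, from 24.1 ± 1.99 to 275 ± 14.3 (3.46), the death ligand TNFSF10 (TRAIL) from 259 ± 9.88 to 924 ± 35.7 (1.83) and CXCL1 from 20.6 ± 5.89 to 97.2 ± 7.31 (2.23). IL8 stood at 12.1 ± 0.341 and 24.7 ± 5.84 (0.95) and IL1B at 97.7 ± 3.73 and 140 ± 13.1 (0.51), and IL6 had at most 1 read in each of these 6 libraries. Interferon-stimulated genes were mixed, with 4 of 35 higher and 3 lower (-0.17). TRIM22 rose from 87.7 ± 10.8 to 644 ± 16.8 (2.87), and IRF9 and IFI27 rose by 1.54 and 1.75. USP18 and IFIT1 fell by 2.16 and 1.4, and MX1 did not pass over all 21 libraries (0.78, adjusted p = 0.088 with limma). Every d15 library of MX1 lay above every d0 library, and it passed without the d7 libraries and with d0 and d15 alone. Of 17 genes of MHC class I presentation 1 rose and 1 fell at 2-fold and 13 rose without the minimum fold (0.37). HLA-E rose from 3010 ± 66.1 to 7420 ± 262 (1.30), HLA-B, B2M and TAP1 rose by 0.83, 0.54 and 0.96, and the activator NLRC5 fell by 1.01, a call that was lost when any 1 of 4 libraries was left out (the first or the second d0 column, or the second or the third d15 column).

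In the ATF4 response 15 of 28 genes rose and 11 fell without the minimum fold (median 0.17), and at 2-fold none fell and 3 rose (5 when the first d0 column was left out), a share near the 11.8% of all genes: NUPR1, a stress-induced chromatin protein (1946 ± 82.9 to 6737 ± 53.1, 1.79), CEBPB (1.45) and ATF3 (1.11). DDIT3 and TRIB3 rose by 0.77 and 0.89 and ASNS, which makes asparagine, fell by 0.58. Among 24 NRF2 targets 1 rose and 3 fell (-0.14, none and 5 after rescaling to the same total), where 11.8% and 8.88% of all genes did. PRDX1 stood at -1.67, AKR1B10 at -1.51, PGD at -1.11, AKR1C2 at 1.07, NQO1 at -0.93 and HMOX1 at 0.90. Of 6 metallothioneins MT1X rose (493 ± 40.9 to 1238 ± 82.9, 1.33), and MT2A stood at 24834 ± 2298 and 19533 ± 2233 (-0.35, adjusted p = 0.072 with limma, and past the threshold without the d7 libraries). Of 49 lysosomal genes 7 rose and none fell (0.53), and 35 rose and 10 fell without the minimum fold. IDUA, MANBA and CTSS rose by 2.34, 1.61 and 1.46, and the cathepsin CTSB went from 3688 ± 35.0 to 10011 ± 246 (1.44), while LAMP1 and CTSD, at 0.17 and 0.24, did not pass after rescaling to the same total. Of the ribosomal protein genes, RPL3 stood at 0.21 as normalised and -0.20 after quantile normalisation, and RPS6 did not pass (-0.04, adjusted p = 0.46 with limma) except after rescaling to the same total (-0.20) and quantile normalisation (-0.32).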

How the data were processed

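The authors deposited normalised read counts per gene, a signal in which reads were divided by a size factor for each library. Their processing notes name STAR 2.7, Salmon 1.4 and hg19 without roles. In every library 100% of the values up to 2000 reads were whole multiples of the value of 1 read to within 0.0055, and the implied factors differed by at most 0.031% from median-of-ratios factors, which gave each library's reads. Counting intervals were not used, since replicate libraries carry that error.

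Values were tested as log2(value + 1) with limma 3.58.1 (trended empirical Bayes) in R 4.3.3, fitted to all 21 libraries with 1 mean per time point, over genes with a mean of at least 10 in the d0 and d15 libraries, with Benjamini-Hochberg adjustment. A call is an adjusted p under 0.05 and at least 2-fold. Differences in brackets are on this log2 scale, which understates the change of low genes. Alternatives were a pseudocount of 10, no filter, rescaling to the same total, quantile normalisation, only the compared groups, leaving out the d7 libraries, no minimum fold, leaving out each library, and, on recovered reads, edgeR 4.0.16 and DESeq2 1.42.0. Where a group had at most 3 reads in each library, folds are bounds against 3 reads per library.

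Named genes are the 10 largest called increases and decreases against d0, 5 each against d10 and d20 (mean of at least 50 in either group, libraries not overlapping), and for each of 40 lists its lead genes and the 4 called members with the largest change; exceptions are stated. The genes compared and the lists were chosen with earlier results of these data known, so list counts are descriptions beside the share of all genes. Of 1070 list genes 13 were matched by an older symbol (RefSeq). P-values and SEs rest on the spread between libraries within time points, estimated over all 21 libraries and including the d7 library that stood apart. For a given gene they can therefore be larger than the d0 and d15 values printed beside them would give. A few genes are not reported here.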

Additional observations from a re-analysis of the deposited data

Results flagged for a closer look

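Among 91 lead genes tested, 24 had every d15 library on one side of all untreated libraries and every d10 library on the other, with a difference between d15 and d10 past the test (limma, adjusted p under 0.05). These were 26.4% of the lead genes, near the 25.3% of all 13446 genes tested that met the same condition (3399 genes), so the count is not a result about the lead genes. Because this condition chose them, the log2 differences of d15 minus d10 that follow are a description. Below untreated at d15 and above it at d10 were RRM2 (-3.25), CDC6 (-2.91) and MKI67 (-1.78) of the cell cycle, HMGCS1 (-2.26) and SCD (-0.58) of lipid synthesis, LDHA (-1.65), NCL (-1.47) and MT2A (-1.86). Above untreated at d15 and below it at d10 were the arrest and p53 genes TXNIP (4.86), GDF15 (4.49), BTG2 (3.54), CDKN2B (1.92), MDM2 (1.75) and CDKN1B (0.91). The same held for KRT17 (3.81), KRT19 (0.80) and TP63 (0.57), for BGN (2.86), for MX1 (1.90), TAP1 (1.72) and HLA-B (1.31), and for DDIT3 (1.80), CTSD (0.91) and RPL3 (0.65). Groups of 3 libraries were not searched for single outlying values.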

How the results depend on the processing

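Under 14 alternatives other than dropping the minimum fold, each of the counts of called genes stayed within 1.5 times its reported value: 1286 to 2139 higher and 1028 to 1595 lower against d0, 1386 to 2345 and 1159 to 1609 against d10, and 819 to 1523 and 810 to 1284 against d20. Without the minimum fold the counts were 5257 higher and 5014 lower against d0, 5382 and 5331 against d10, and 4957 and 4962 against d20, and 20 quiescence genes were higher. The replication list had 45 to 46 members lower, the mitosis list 46 to 48 lower, the p53 list 13 to 16 higher and the quiescence list 12 to 13 higher. With 1 library left out, the counts against d0 ran from 1555 to 1591 higher and 1181 to 1223 lower, against d10 from 1703 to 1760 and 1304 to 1318, and against d20 from 1060 to 1112 and 930 to 958.

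Of 240 single-gene results, KRT14 (0.71) and RPL3 (0.21) turned sign after quantile normalisation, to -0.51 and -0.20; the cause was not tested. In 32 of the alternative values a gene lost its adjusted p under 0.05 and in 27 it gained it, 8 of these without the d7 libraries and 6 with only the compared groups in the fit. Genes that lost it against d0 when at least 1 of the libraries was left out included KRT5, IL1B, GATA3, MYH11, EDN2, CDKN1B and MYC. No paired analysis was possible because no replicate number is given for any column analysed. With 3 libraries a group and no untreated d15 culture, the differences cannot be assigned to TGFβ rather than to time or density in culture, and genes with few reads (for example COL5A1, HEYL and SPRR2D) have bounds only.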
